A study of Homo sapiens with 6 samples.

Results

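The nuclear lamins, 3 proteins that bind them at the inner nuclear membrane and 4 high mobility group (HMG) chromatin proteins were followed at the transcript level in 3 established human colorectal cancer lines, HCT116, HT29 and SW480. They are 10 genes, LMNA, LMNB1, LMNB2, LBR, TMPO, EMD, HMGB1, HMGB2, HMGB3 and HMGA1, out of 13021 gene identifiers with a single row in the deposited matrix, and each of the 10 had a value in every library. Each line gave 1 RNA sequencing library from cells stably carrying a short hairpin RNA (shRNA) against BZW2 and 1 from cells carrying a non-targeting shRNA, so each group held 3 libraries, 1 per line. All cells, controls included, had been transduced with lentivirus and selected in puromycin at 1 µg/ml, and the labels give no time after selection and no repeat cultures. The titles carry the same hairpin name (SH2) for BZW2 in all 3 lines and give a genotype for HCT116 alone, as HCT116WT. The study asked which genes and pathways change when BZW2, a protein related to initiation factor eIF5, is depleted. The 10 genes were selected on their deposited levels and their BZW2 shRNA over non-targeting ratios in these same 6 libraries, so the ratios below are a description and carry no test.

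Lamins are intermediate filament proteins that form a meshwork under the inner nuclear membrane. A-type lamins come from LMNA and B-type lamins from LMNB1 and LMNB2, and B-type lamins stay attached to the membrane through a farnesyl group. LBR, the lamin B receptor, emerin, encoded by EMD, and the membrane-bound forms of the LAP2 proteins, encoded by TMPO, tie lamins and chromatin to that membrane. Gene-level reads of TMPO pool its transcripts and do not tell these forms from others. HMG proteins are abundant non-histone proteins of chromatin: HMGB1, HMGB2 and HMGB3 bend DNA with paired HMG boxes, and HMGA1 binds the minor groove of AT-rich DNA with AT-hooks. LMNB1 and HMGB2 are known to be abundant in dividing cells and to be lost in senescent ones.

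Depth over listed genes ranged from 2187373 reads (HCT116, BZW2 shRNA) to 9317444 reads (HT29, non-targeting shRNA). BZW2 itself (ENSG00000136261) stood at 17.6% (HCT116), 8.69% (HT29) and 13.5% (SW480) of its control. Its longest transcript has 36.9% GC. Once trends over GC content and transcript length were removed, its fold was 0.112 for HT29, 0.118 for SW480 and 0.499 for HCT116. The depth of depletion in HCT116 thus depends on this adjustment. Before it, 93.2% of HCT116 genes had a higher ratio than BZW2, compared to 99.7% for SW480 and 99.9% for HT29. Within a line, ratios are of reads scaled by TMM, which sets the bulk of genes to a common level, and intervals are exact 95% intervals of counting error. HCT116 stood apart. Its share of genes 2-fold or more higher was 26.8% of 11363 genes that reached 5 CPM, and 28.8% were as far below their control. HT29 had 3.74% higher and 6.17% lower of 10104 genes, and SW480 4.98% higher and 7.36% lower of 11155. Log2 ratios followed transcript GC content in HCT116 (Spearman 0.659 across genes, which are not independent), less so in HT29 (0.311) and hardly in SW480 (−0.0629). Library size alone in place of TMM put the median of all HCT116 genes at −0.39 in place of −0.08. Of the epithelial markers looked for, 6 of 10 had a value in each line, and KRT20, VIL1, CDX1 and LGALS4 were not analysed here. Of these, 4 were at least 2-fold higher and 1 lower in HCT116. The counts were 0 and 0 of 5 with enough reads in HT29, and 0 and 1 of 6 in SW480. At any size 4, 1 and 3 were higher. Those named share a direction in all lines. CDH1 was at 0.464-fold (HCT116), 0.581-fold (HT29) and 0.327-fold (SW480), and EPCAM at 0.694-fold, 0.851-fold and 0.817-fold. KRT18, an abundant keratin, was at 4.08-fold, 1.10-fold and 1.00-fold, and at 2.07-fold, 0.944-fold and 0.960-fold after an adjustment for GC content and transcript length. The summed level of the 6, in CPM (reads scaled to a common total), was 14587 with BZW2 shRNA against 3782 in the HCT116 control, 9030 against 10414 in HT29, and 6557 against 6725 in SW480. The part of these differences in the results was not tested. Of 10 markers of blood, endothelial, fibroblast and muscle cells, 2 had a value in HCT116 and in SW480, at a summed 13.2 CPM or less, and 0 in HT29.

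Of the 10 genes, 3 were at least 2-fold higher with BZW2 shRNA in HCT116, and 5 in HT29 as in SW480. In no line was any of them (0 of 10) at least 2-fold lower. Counts of 2-fold differences use log2 ratios with a prior count of 2 reads, so a printed fold close to 2, which has none, can fall on the other side. In HCT116 that share of 3 in 10 is near the 26.8% of all genes, so it says nothing particular about these genes. The median log2 ratio of the 10 genes was 0.37, beside −0.02 over all genes, in HCT116, 0.98 beside 0.02 in HT29, and 0.97 beside 0.01 in SW480. At any size, 8 of the 10 were higher in HCT116 (49.6% of all genes), 9 in HT29 (51.2%) and 8 in SW480 (50.4%). LMNB1, LMNB2, TMPO, HMGB1 and HMGB2 were the 5 that were higher in all 3 lines, as were 23.5% of 9657 genes, but with library size alone TMPO and HMGB1 were lower in HCT116. LMNB1 and LMNB2 were the 2 genes at least 2-fold higher in every line, as were 1.13% of those genes. After an adjustment for GC content and transcript length both were under 2-fold in HCT116, and HMGB1 was then the 1 gene at least 2-fold higher in every line. The share of all genes after this adjustment is not given here. In HT29 and SW480 together, without HCT116, the 5 genes were LMNB1, LMNB2, HMGB1, HMGB2 and HMGB3, beside 1.56% of 9758 genes. A fit across lines with limma, in which the line is the replicate, called 0 of 10875 genes (0%) at adjusted p under 0.05, with 717 higher and 766 lower genes at an unadjusted p under 0.05. EdgeR and limma-voom also called 0, whereas DESeq2 called 244 (2.24%). Estimates across lines are therefore given with their standard error alone.

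**Figure D1:**
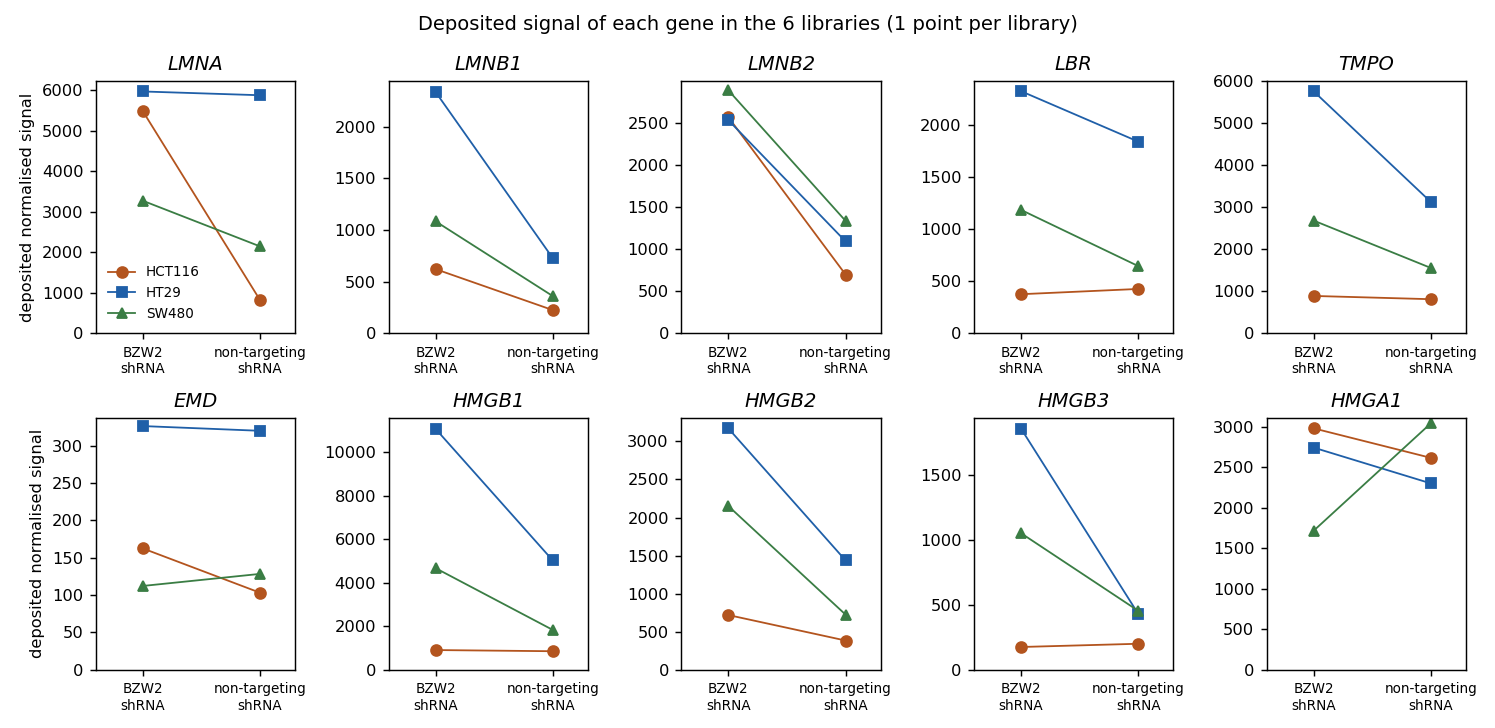
Deposited normalised signal (y axis, linear, from 0) of each gene in the 6 libraries, with BZW2 shRNA on the left and non-targeting shRNA on the right of each panel and a line joining the 2 libraries of a cell line. LMNB1, LMNB2 and HMGB2 are higher with BZW2 shRNA in all 3 lines, while HMGA1 is lower in SW480 alone on this scale and also in HCT116 with library size alone.

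LMNB1, which encodes lamin B1, was close to 3-fold higher with BZW2 shRNA in every line. The gene (ENSG00000113368) lies on the plus strand of chromosome 5 from 126776623 to 126837020 (GRCh38). Its normalised signal with BZW2 shRNA was 620.3 for HCT116, 2339.5 for HT29 and 1084 for SW480, against 222.5, 726.1 and 358.3 with the non-targeting shRNA. Each BZW2 shRNA library was above its own control. The deposited signal was scaled separately in each line, so signals of different lines are set side by side only as levels. On it the HCT116 value with BZW2 shRNA lay below the HT29 control. In reads per kilobase of longest transcript, scaled over all 6 libraries, the order was reversed, at 52.9 against 23.3. The fold was 2.70 in HCT116 (95% counting interval 2.33 to 3.12), 3.16 in HT29 (2.91 to 3.44) and 2.96 in SW480 (2.62 to 3.36). These intervals overlap one another, and the log2 ratios had an SD of 0.12 among lines, the smallest of the 10 genes. After the GC and length adjustment the folds were less even, reaching 1.75 for HCT116, 2.98 for HT29 and 2.91 for SW480. Their log2 SD was then 0.43, and EMD had the smallest SD at 0.13. The limma estimate over the lines was 1.59 ± 0.35 on the log2 scale (SE moderated over genes, n = 3 lines). The place of LMNB1 among all genes differed: 17.7% of genes had a higher ratio in HCT116, 0.455% in HT29 and 1.07% in SW480.

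LMNB2, which encodes lamin B2, was higher in every line as well (ENSG00000176619, chromosome 19, minus strand, 2427638 to 2456996). It had 2565, 2529.8 and 2884.5 units of signal with BZW2 shRNA in HCT116, HT29 and SW480, against 695.0, 1089 and 1333 with the non-targeting shRNA. Each BZW2 shRNA library was above its own control. The fold was 3.57 in HCT116 (3.31 to 3.86), 2.28 in HT29 (2.12 to 2.45) and 2.12 in SW480 (1.98 to 2.27), and the estimate across lines was 1.404 ± 0.363 on the log2 scale. A stretch of 303 bases of its exons is shared on the same strand with TIMM13 and MIR7108, so the split of reads there is uncertain.

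LMNA, the gene of lamins A and C, differed in size from line to line. It lies on the plus strand of chromosome 1 from 156082573 to 156140089 (ENSG00000160789). Its signal with BZW2 shRNA was 5480 for HCT116, 5967 for HT29 and 3268 for SW480, against 812.9, 5874 and 2140 with the non-targeting shRNA. The low value is the HCT116 control, and the HT29 pair differed by less than its counting error. The fold was 6.52 in HCT116 (6.13 to 6.95), 0.997 in HT29 (0.961 to 1.03) and 1.496 in SW480 (1.415 to 1.581). The limma estimate was 1.13 ± 0.52, and it was 0.32 without HCT116. The ratio of LMNA to LMNB1, in reads per kilobase of transcript, was 9.62 with BZW2 shRNA against 3.98 with the non-targeting shRNA in HCT116. It was 2.78 against 8.81 in HT29 and 3.28 against 6.51 in SW480. The balance of A-type to B1 lamin transcripts was thus higher in HCT116 and lower in the other 2 lines, with 1 library per value and no replicate check. LMNA transcripts have 61.5% GC and those of LMNB1 51.1%. After the GC and length adjustment the HCT116 folds were closer, at 2.39 for LMNA and 1.75 for LMNB1.

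**Figure D2:**
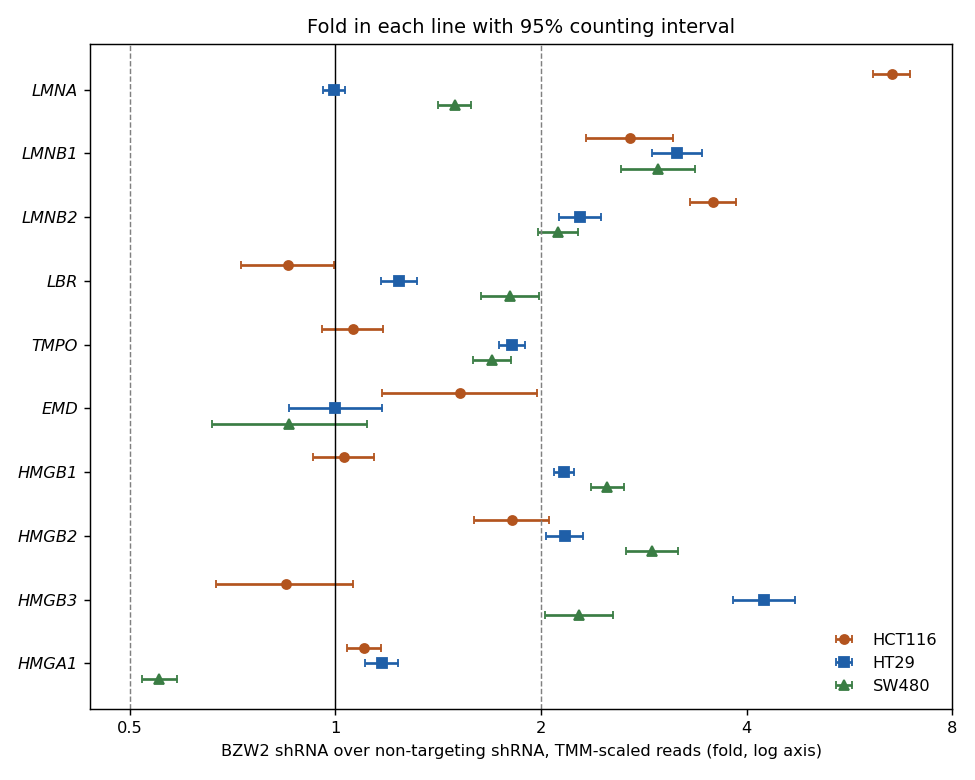
Fold of BZW2 shRNA over non-targeting shRNA (x axis, log scale) for each gene, 1 point per line with its 95% counting interval. The solid line marks equal levels and the dashed lines 2-fold. The LMNB1 points sit between 2.70 and 3.16, whereas those of LMNA run from 0.997 to 6.52.

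The membrane partners of the lamins stayed under 2-fold in every line. LBR, which also carries a sterol reductase activity, lies on chromosome 1 (225401502 to 225428925, minus strand, ENSG00000143815). It had a signal of 374.0, 2330 and 1186 with BZW2 shRNA in HCT116, HT29 and SW480, against 424.8, 1844 and 644.7 with the non-targeting shRNA. The fold was 0.852 in HCT116 (0.727 to 0.995), 1.24 in HT29 (1.17 to 1.32) and 1.80 in SW480 (1.63 to 1.99), so the lines did not share a direction. TMPO (ENSG00000120802, chromosome 12, plus strand, 98515512 to 98550379) had a signal of 884.8, 5763 and 2681 against 806.9, 3121 and 1550 in the same order of lines. Its fold was 1.81 in HT29 (1.73 to 1.89) and 1.69 in SW480 (1.59 to 1.81). In HCT116 it was 1.06 with an interval that includes 1 (0.956 to 1.18), and with library size alone its log2 ratio was −0.23. The exons of TMPO share 713 bases with TMPO-AS1 on the opposite strand, and whether counting used strand is not given in the sources used here.

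EMD was the lowest of the 10 genes in reads, at 89 to 329 per library (ENSG00000102119, chromosome X, plus strand, 154379197 to 154381523). Its signal was 162.4, 326.1 and 112.1 with BZW2 shRNA in HCT116, HT29 and SW480, against 103.0, 319.8 and 128.3 with the non-targeting shRNA. The fold was 1.52 in HCT116 (1.17 to 1.97), 1.00 in HT29 (0.855 to 1.17) and 0.856 in SW480 (0.659 to 1.11). In HT29 and SW480 no difference was detectable at this depth.

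The HMGB genes were more than 2-fold higher with BZW2 shRNA in HT29 and SW480, and HCT116 differed from gene to gene. HMGB2, a cofactor of chromatin compaction and recombination (ENSG00000164104, chromosome 4, minus strand, 173331695 to 173335125), had a signal of 718.8, 3172 and 2151 with BZW2 shRNA in HCT116, HT29 and SW480, against 383.7, 1437 and 724.4 with the non-targeting shRNA. Its fold was 1.81 in HCT116 (1.60 to 2.05), 2.166 in HT29 (2.035 to 2.306) and 2.91 in SW480 (2.67 to 3.18), and the estimate across lines 1.20 ± 0.36. Like LMNB1 it was above its control in each line. The HCT116 signal with BZW2 shRNA was below the HT29 and SW480 controls, but signals were scaled separately in each line. In reads per kilobase, scaled over all 6 libraries, HMGB2 was at 112.8 there, above those controls at 85.0 and 67.7.

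HMGB1, the most abundant family member in many tissues and an alarm signal when released from cells (ENSG00000189403, chromosome 13, minus strand, 30456704 to 30617597), had a signal of 904.9, 11074 and 4670 with BZW2 shRNA in HCT116, HT29 and SW480, against 850.7, 5022 and 1829 with the non-targeting shRNA. The fold was 2.16 in HT29 (2.09 to 2.24) and 2.501 in SW480 (2.365 to 2.645). In HCT116 it was 1.03 (0.928 to 1.14), and the log2 ratio there was −0.28 with library size alone. HMGB3, linked to blood stem cells in mice (ENSG00000029993, chromosome X, plus strand, 150980509 to 150990775), showed the widest gap between lines within the family. Its signal was 175.1, 1857 and 1052 with BZW2 shRNA in HCT116, HT29 and SW480, against 200.1, 429.6 and 453.4 with the non-targeting shRNA. The fold was 4.24 in HT29 (3.82 to 4.72), where 0.0396% of genes had a higher ratio, and 2.27 in SW480 (2.03 to 2.55). In HCT116 it was 0.847 (0.669 to 1.06), an interval that includes 1. The log2 estimate across lines was 1.04 ± 0.47 for HMGB3 and 0.86 ± 0.39 for HMGB1, and without HCT116 these were 1.66 and 1.25. GENCODE 29 names 48 pseudogenes after HMGB1, 29 after HMGB3, 7 after HMGA1 and 1 after HMGB2, so reads of these genes may be split with near-identical copies.

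HMGA1, a chromatin protein often abundant in colorectal tumours, differed in direction from the HMGB genes in SW480. It lies on the plus strand of chromosome 6 from 34236873 to 34246231 (ENSG00000137309). Its signal with BZW2 shRNA was 2977 for HCT116, 2740 for HT29 and 1716 for SW480, against 2613, 2298 and 3042 with the non-targeting shRNA. On this signal, scaled separately in each line, SW480 held both the lowest value, with BZW2 shRNA, and the highest, with the non-targeting shRNA. In reads per kilobase, scaled over all 6 libraries, HCT116 with BZW2 shRNA was highest at 408.7 and the HT29 control lowest at 118.9. SW480 then stood at 134.9 with BZW2 shRNA and 248.6 with the non-targeting shRNA. The fold was 0.552 in SW480 (0.521 to 0.586) and 1.17 in HT29 (1.11 to 1.24). In HCT116 it was 1.10 (1.04 to 1.17), and the log2 ratio was −0.18 with library size alone. The estimate across lines was −0.13 ± 0.39.

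GC content moved with the HCT116 ratios of these genes. Genes with a longest transcript under 45% GC had a median log2 ratio of −1.21 in HCT116, and those over 55% one of 1.23. LBR, HMGB1, TMPO and HMGB3 have 37.8%, 37.9%, 41.4% and 44.02% GC, and EMD, HMGA1, LMNB2 and LMNA 59.97%, 61.3%, 61.4% and 61.5%. The 4 genes of low GC had a median of −0.09 in HCT116, above the −1.21 of their band, whereas the 4 of high GC had a median of 1.22, level with the 1.23 of theirs. When each line's trend over GC content and transcript length was taken out, the HCT116 fold became 3.004 for HMGB1, 2.15 for LBR and 2.06 for TMPO, and 2.39 for LMNA, 1.75 for LMNB1 and 1.59 for LMNB2. That of HMGA1 became 0.447 and that of EMD 0.705. In SW480 the adjusted folds were 2.45 for HMGB1, 2.91 for LMNB1, 2.33 for LMNB2 and 0.547 for HMGA1. The part of GC content in these ratios was not tested beyond this adjustment. With it the estimate across lines was 1.499 ± 0.259 for HMGB1, 1.34 ± 0.26 for LMNB1 and −0.68 ± 0.30 for HMGA1.

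**Figure D3:**
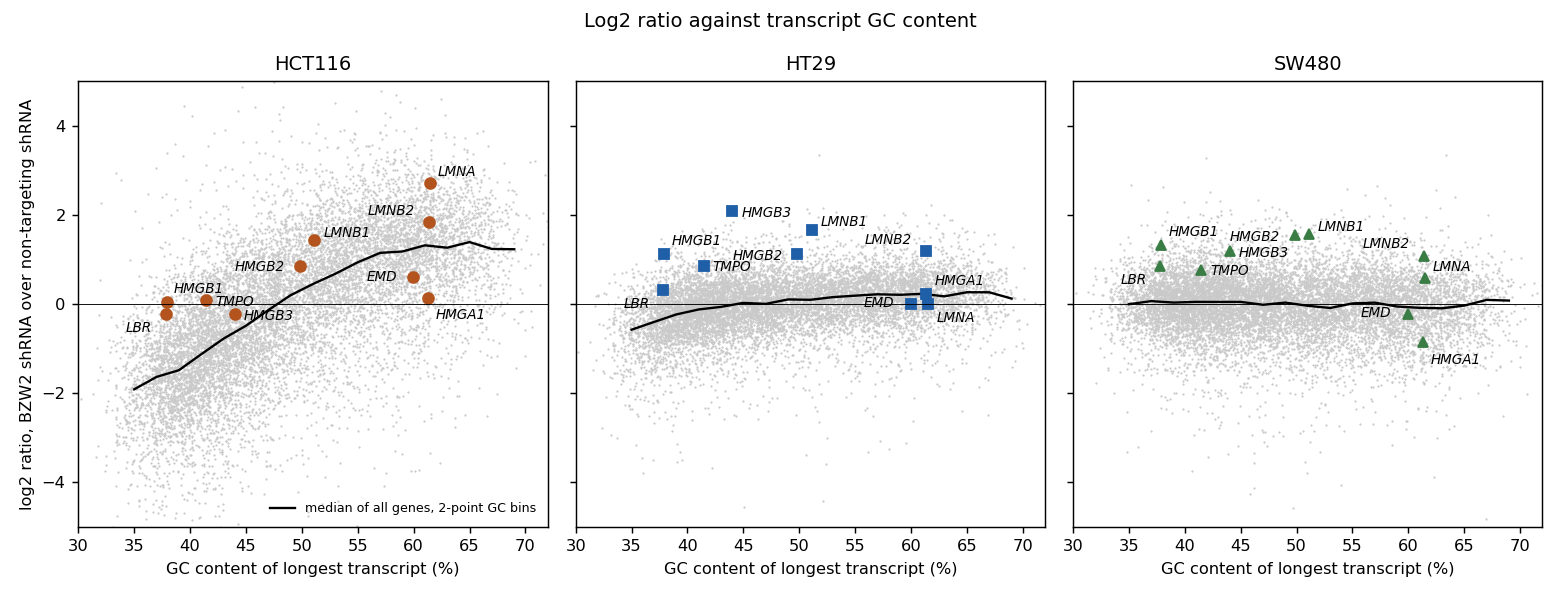
Log2 ratio of BZW2 shRNA over non-targeting shRNA (y axis) against GC content of the longest transcript (x axis, percent), for all genes with enough reads in grey and the 10 genes in colour. The black line is the median of all genes in bins of 2 GC points with at least 20 genes. It climbs steeply in HCT116 and is nearly flat in SW480.

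**Figure D4:**
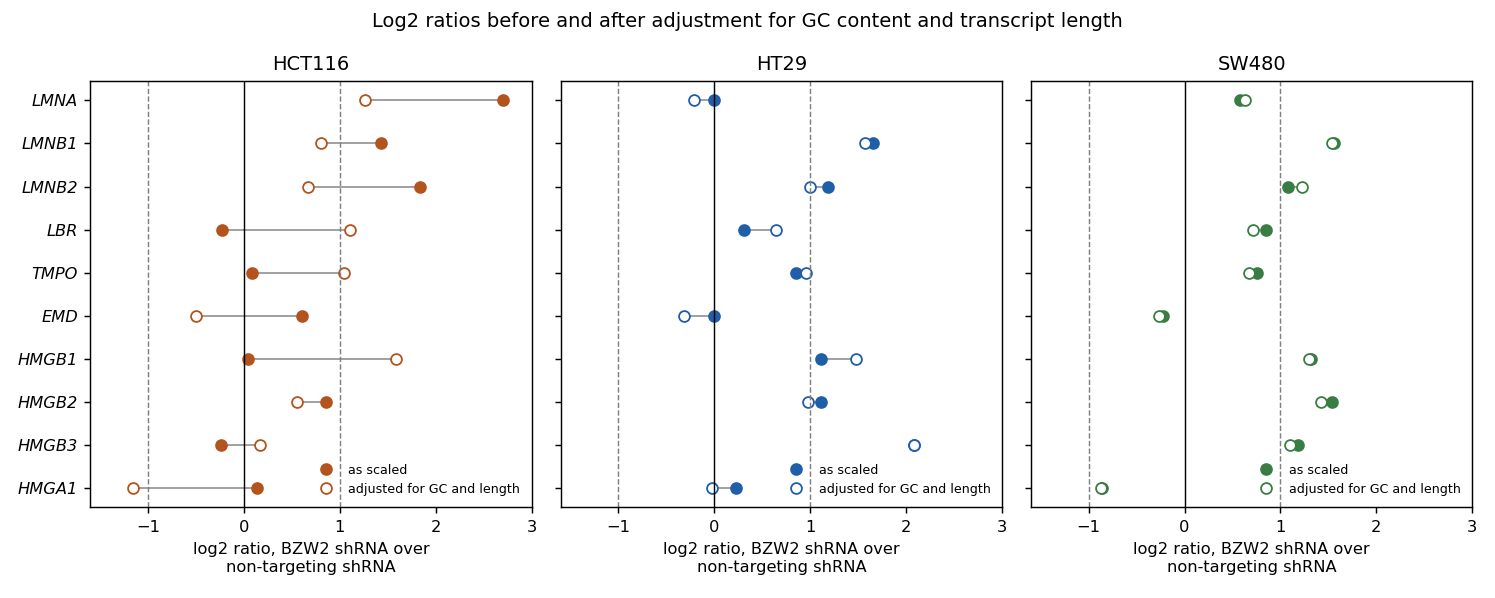
Log2 ratio of each gene in each line as scaled by TMM (filled) and after the trend over GC content and transcript length was removed (open), with dashed lines at 2-fold. HMGB1, LBR and TMPO lie past 2-fold higher in HCT116 after the adjustment, and HMGA1 past 2-fold lower.

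Levels of different genes were compared in reads per kilobase of longest transcript, scaled to a common library total. With the non-targeting shRNA, HMGA1 was highest in HCT116 at 377.2 and in SW480 at 248.6, and LMNA in HT29 at 205.8. With total exon length in place of the longest transcript, HMGA1 was highest in the HT29 control too, at 110.3 against 93.97 for LMNA. With BZW2 shRNA the highest gene was LMNA in HCT116 at 509.1, HMGB1 in HT29 at 220.4 and HMGB2 in SW480 at 193.3. With total exon length HMGA1 led in HCT116, at 379.2 against 232.5 for LMNA. LMNB1 was among the 2 lowest genes of every control library, at 18.2 to 23.3, but EMD and HMGB3 were both below it in the HCT116 and HT29 controls with total exon length. By either length EMD or HMGB3 was the lowest of every library. In controls LMNB1 differed least between lines, by 1.28-fold from SW480 to HT29, and HMGA1 most, by 3.17-fold from HT29 to HCT116. HMGB1 exceeded HMGB2 in HT29, by 1.20-fold with either hairpin, and was below it in HCT116 (0.434-fold with BZW2 shRNA and 0.764-fold with the non-targeting shRNA) and in SW480 (0.748-fold and 0.870-fold). With 1 library each, neighbours in these orders cannot be told apart beyond counting error.

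**Figure D5:**
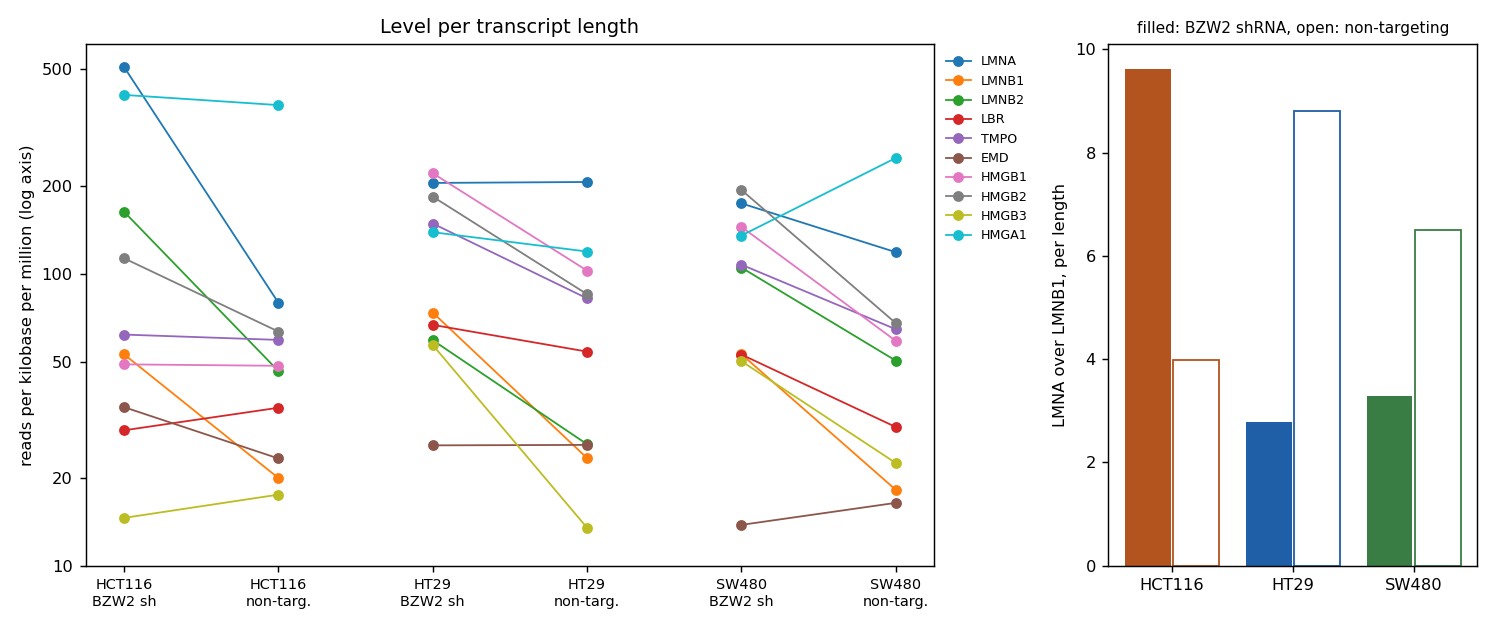
Left, level of each gene per transcript length (y axis, log scale) in the 6 libraries, with BZW2 shRNA left of non-targeting shRNA in each line. Right, ratio of LMNA to LMNB1 per length (bars from 0), filled for BZW2 shRNA and open for non-targeting shRNA, at 9.62 against 3.98 for HCT116, 2.78 against 8.81 for HT29, and 3.28 against 6.51 for SW480.

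The promoters of genes that were higher with BZW2 shRNA are shown because they can be searched for short elements known from promoters of cell cycle genes. Upstream bases were taken from RefSeq (GRCh38.p14), which held 17 windows for 9 of the 10 genes, with HMGB2 not among them. They were searched on both strands for CCAAT, the box bound by NF-Y, for TTTGAA, the core of the cell cycle genes homology region, for GCGGGAA, an E2F-type element, and for GGGCGG, the GC box. The sequences below run 5′ to 3′ towards the start, stop before any annotated exon of a coding gene, and carry the matches in capitals, with HMGB3 added after its values had been seen.
LMNB1, chr5:126776373-126776622, plus strand: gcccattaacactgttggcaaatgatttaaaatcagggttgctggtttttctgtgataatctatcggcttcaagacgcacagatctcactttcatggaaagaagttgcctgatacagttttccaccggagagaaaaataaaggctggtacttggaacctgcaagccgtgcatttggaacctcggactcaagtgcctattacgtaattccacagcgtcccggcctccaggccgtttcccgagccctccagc
LMNB2, chr19:2456997-2457209, minus strand: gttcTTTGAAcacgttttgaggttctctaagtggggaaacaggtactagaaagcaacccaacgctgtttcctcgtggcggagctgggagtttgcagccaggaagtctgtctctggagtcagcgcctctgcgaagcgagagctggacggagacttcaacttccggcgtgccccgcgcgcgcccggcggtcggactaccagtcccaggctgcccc
TMPO, chr12:98515323-98515511, plus strand: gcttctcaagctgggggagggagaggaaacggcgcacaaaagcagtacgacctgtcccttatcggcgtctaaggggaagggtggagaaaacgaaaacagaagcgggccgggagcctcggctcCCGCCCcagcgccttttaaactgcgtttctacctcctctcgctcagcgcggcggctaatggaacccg
HMGB1, chr13:30465966-30466186, minus strand: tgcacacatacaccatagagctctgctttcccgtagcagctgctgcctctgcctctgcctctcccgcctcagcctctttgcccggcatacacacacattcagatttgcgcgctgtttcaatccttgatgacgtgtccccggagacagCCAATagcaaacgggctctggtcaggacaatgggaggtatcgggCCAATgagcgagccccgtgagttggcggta
HMGB3, chrX:150983085-150983285, plus strand: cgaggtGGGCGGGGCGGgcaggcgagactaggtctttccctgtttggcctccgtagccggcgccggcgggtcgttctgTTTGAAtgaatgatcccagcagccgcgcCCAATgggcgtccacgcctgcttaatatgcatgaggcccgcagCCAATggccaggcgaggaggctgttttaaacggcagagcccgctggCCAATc
In the 250 bases before these starts CCAAT began 103, 59 and 28 bases upstream in HMGB1 and 144, 101 and 55 bases upstream in HMGB3, and 47 and 15 bases upstream in TMPO, of which those in the stretches shown are capitalised. CCAAT was in 9 of the 17 windows, against 32.0% of 35116 windows of all genes. TTTGAA was in 3 of 17 (HMGB1, HMGB3 and LMNB2), against 13.3%, GGGCGG in 13 of 17, against 42.6%, and GCGGGAA in 1 of 17, that of LMNA, against 5.52%. Windows of 1 gene can overlap, and GC boxes overlap one another, so the 17 windows are not separate observations. A match is a run of letters and does not show binding, and no match says only that these letters are not in this window. The outer LMNB1 window shown held none of the 4, whereas its second window, inside an annotated exon and not shown, held CCAAT and GGGCGG.

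Other genes of the nuclear envelope differed from one another in direction. The counts of each list below stand beside 26.8% higher and 28.8% lower of all genes in HCT116, 3.74% and 6.17% in HT29, and 4.98% and 7.36% in SW480, so in HCT116 a count such as 6 higher and 4 lower of 17 is near the share of all genes. These shares are those before the GC and length adjustment. The share of all genes after it is not given here, so adjusted counts of a list cannot be set against them. Of 17 lamina and inner nuclear membrane partners, at least 2-fold differences were seen in 6 higher and 4 lower in HCT116, in 0 higher and 1 lower of 15 in HT29 and in 0 higher and 2 lower of 16 in SW480. SYNE1 and SYNE2, the nesprins that link the nucleus to the cytoskeleton, were lower in each line, SYNE1 at 0.113-fold in HCT116, 0.331-fold in HT29 and 0.428-fold in SW480. SYNE2 stood at 0.0985-fold, 0.601-fold and 0.648-fold in the same order. TMEM201, an inner nuclear membrane protein, was at 7.85-fold, 1.83-fold and 1.31-fold, and at 2.98-fold, 1.57-fold and 1.38-fold after the GC and length adjustment. Its SW480 fold came from 54 against 33 reads, with a counting interval that includes 1 (0.834 to 2.09). Of 4 lamin processing enzymes, 1 was 2-fold higher in HCT116 and 0 in HT29 and SW480. ICMT, which methylates farnesylated lamins, stood at 1.20-fold, 1.63-fold and 1.75-fold, ZMPSTE24, the protease of prelamin A, at 1.43-fold, 1.17-fold and 1.99-fold, and FNTA, a farnesyltransferase subunit, at 0.524-fold, 0.896-fold and 0.676-fold. After the GC and length adjustment FNTA was at 1.53-fold, 1.13-fold and 0.702-fold, a change of direction in 2 lines, and in HCT116 ZMPSTE24 was at 3.25-fold, SYNE1 at 0.250-fold and SYNE2 at 0.290-fold. The partners were then 3 higher and 4 lower in HCT116.

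Among 30 nuclear pore genes, 13 were at least 2-fold higher and 2 lower in HCT116, 0 higher and 1 lower in HT29, and 3 higher and 0 lower in SW480. Their median log2 ratios were 0.85, 0.24 and 0.31. NUP107, of the pore scaffold, was at 2.43-fold in HCT116, 1.90-fold in HT29 and 2.32-fold in SW480, with NUP85 at 6.50-fold, 1.95-fold and 2.26-fold and NUP93 at 7.01-fold, 1.56-fold and 1.94-fold. Of 9 heterochromatin partners of LBR and LAP2, 6 were higher and 2 lower in HCT116, 2 higher and 0 lower in HT29, and 1 higher and 0 lower in SW480. SUV39H1, a histone H3 lysine methyltransferase, was at 17.3-fold, 2.39-fold and 3.08-fold, from 11, 43 and 13 control reads, with a counting interval of 8.99 to 36.5 in HCT116. TRIM28, a corepressor, was at 8.66-fold in HCT116 but at 1.19-fold in HT29 and 1.05-fold in SW480, and EHMT1, another H3 methyltransferase, at 2.61-fold, 1.44-fold and 1.09-fold. With the adjustment the HCT116 folds were 5.67 for SUV39H1, 3.06 for TRIM28, 4.14 for NUP85 and 5.87 for NUP107. The HCT116 counts were then 2 higher and 0 lower heterochromatin genes and 19 higher and 0 lower pore genes, and in HT29 2 pore genes were higher. No adjusted share of all genes stands beside these counts.

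Among other HMG proteins, at least 2-fold differences were seen in 3 higher and 5 lower of 14 in HCT116, 1 higher and 0 lower of 14 in HT29 and 0 of 15 in SW480, with median log2 ratios of −0.81, 0.24 and 0.45. HMGN2, a nucleosome-binding HMG protein, was at 2.24-fold, 1.77-fold and 1.62-fold, UBTF, the HMG-box factor of RNA polymerase I, at 2.69-fold, 1.33-fold and 2.01-fold, and BBX at 0.196-fold, 0.746-fold and 0.914-fold. UBTF in SW480 is thus on the 2-fold line and was not counted. After the adjustment the HCT116 folds were 4.97 for HMGN2, 1.58 for UBTF and 0.590 for BBX, with 2 genes higher and 1 lower and a median log2 ratio of 0.14, and 1 gene was higher in SW480. Of the HMGB receptors and SET complex genes, at most 4 of 10 had enough reads in a line, and 1 was 2-fold higher in HCT116, 1 in HT29, and 1 lower in SW480.

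Of 12 cell cycle genes, 9 reached 2-fold higher in HCT116, 10 did so in HT29, and 12 in SW480. In each line 0 were 2-fold lower, and the median log2 ratios were 2.18, 1.37 and 1.40. CCNB1, the mitotic cyclin whose kinase phosphorylates lamins, was at 8.54-fold, 2.74-fold and 4.99-fold. MCM5, of the replicative helicase, was at 14.7-fold, 2.58-fold and 2.75-fold, and MYBL2, a cell cycle transcription factor, at 9.06-fold, 3.37-fold and 2.70-fold. Of 10 genes of lamina disassembly and reassembly, 4, 2 and 4 were higher and 1, 0 and 0 lower in HCT116, HT29 and SW480. This list is not separate from the cell cycle genes, as CCNB1 is in both. The 10 genes include CDCA2, a mitotic phosphatase subunit, at 2.31-fold, 2.49-fold and 2.84-fold, and PLK1, a mitotic kinase, at 30.4-fold, 1.90-fold and 2.38-fold from 27, 95 and 42 control reads. After the adjustment the cell cycle counts were 9, 8 and 12 higher and 0 lower, and the HCT116 folds were 12.9 for CCNB1, 7.44 for MCM5, 3.27 for MYBL2 and 13.3 for PLK1. In bulk RNA more dividing cells and more transcript per cell cannot be told apart, and the part of the cell cycle in the lamin and HMGB ratios was not tested. Of 12 senescence genes, 6 had a value, and at least 2-fold differences were seen in 1 higher and 2 lower in HCT116, 0 higher and 1 lower of 5 with enough reads in HT29, and 0 higher and 1 lower in SW480. At any size 3 of 6 were higher in HCT116, 2 of 5 in HT29 and 1 of 6 in SW480, so the genes did not share a direction. CDKN2B, an inhibitor of the G1 cyclin kinases, was at 0.109-fold, 0.667-fold and 0.710-fold, with 7 reads against 207 in HCT116.

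Among 6842 other genes with at least 100 reads in every control, the 3 nearest to LMNB1 by Euclidean distance over the log2 ratios of the 3 lines were RFC5, a clamp loader subunit (distance 0.31), PCNA, the sliding clamp (0.36), and SHMT1, a folate enzyme (0.37). For HMGB2 they were CCNB2, a mitotic cyclin (0.11), EXO1, an exonuclease of repair (0.17), and POP1, a ribonuclease P subunit (0.30). For LMNA they were SLC4A2, an anion exchanger (0.13), RRP1 (0.13) and DDX56 (0.16), and for HMGA1 SEC14L1, PNMA1 and GALNT6 (0.11, 0.11 and 0.13). Such distances cover 3 points per gene and carry no test.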

How the data were processed

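RNA sequencing gave gene levels in 6 libraries, 1 per cell line and hairpin. The submitters' processing notes name bcl2fastq 2.17, STAR 2.5.2b, DESeq and the GRCh38 build. Neither the counter, the annotation nor strandedness is given in the sources used here. The deposited table holds a normalised signal, gene reads divided by a size factor per library, which the authors set within each line: the 2 factors of a line multiply to 1. Levels were therefore first compared within a line. Whole reads were recovered by dividing by each column's step, with 100% of values whole within 0.1 read. In the SW480 control the smallest value stood for 2 reads. Of 13040 identifiers, 19 repeated ones were left out, which leaves 13021, of which 10875 have values in all 3 lines. Symbols matched 13003 identifiers, and GENCODE 29 matched 13018.

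Within a line, with 1 library per hairpin and so no test, log2 ratios came from TMM-scaled reads (edgeR 4.0.16, prior count 2). A gene needed 5 CPM in the higher library to be counted, and intervals are exact Clopper-Pearson intervals of counting error only. Across lines, limma 3.58.1 (R 4.3.3) was fitted on log2 of signal plus 1 with line and hairpin as terms and an intensity trend, Benjamini-Hochberg threshold 0.05, two-sided. The line is the replicate and the source of pairing: deviations of the BZW2 shRNA library from its group mean correlated with those of its own control at 0.28 (HCT116), 0.75 (HT29) and 0.45 (SW480), and at most at 0.23, −0.66 and 0.38 with another line's control. P-values and standard errors rest on the spread among lines, moderated over genes, so a printed SE is not that of 1 gene alone. Other pseudocounts, filters and scalings, DESeq2 1.42.0, and splines over GC content and length (5 degrees of freedom each) served as alternatives. The limma and ratio scripts were tested on simulated counts. These had the same dispersion for all genes, the same fold in every line and no trend over GC content or length. They therefore do not show how the scripts behave with a trend such as that of HCT116. The 10 genes, the gene lists and the promoter choice were made with earlier results of these data known. Genes named from a list are the up to 3 with the largest absolute mean log2 ratio among those sharing a sign in all lines, with at least 50 reads in the higher library of each.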

Additional observations from a re-analysis of the deposited data

Results flagged for a closer look

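LBR and HMGA1 went opposite ways in 2 lines, with each line's counting interval clear of equal levels under TMM scaling. For LBR in HCT116 that interval ended at 0.995, close to 1. Its log2 ratio there was −0.23, and −0.18 with the authors' size factors and −0.55 with library size alone. The HMGA1 log2 ratio in HCT116 was −0.18 with library size alone, which is the direction of SW480. The difference between lines was not tested, since each line has 1 library per hairpin. For LBR the log2 ratio was higher by 0.54 in HT29 than in HCT116, and by 1.08 in SW480 than in HCT116. For HMGA1 it was higher by 1.00 in HCT116 than in SW480, and by 1.08 in HT29 than in SW480. After adjustment for GC content and transcript length LBR stood above its control in all 3 lines (2.15-fold, 1.56-fold and 1.65-fold in HCT116, HT29 and SW480), and HMGA1 below it in all 3 (0.447-fold, 0.982-fold and 0.547-fold).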

How the results depend on the processing

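Across lines, limma called 0 genes under both other pseudocounts (0.5 and 5), both filters, both other scalings, limma-voom, edgeR and the adjustment for GC content and length. Without the replicate block, that is without the cell line in the model, it also called 0. DESeq2 called 244 genes, and leaving out 1 line gave 57 to 338, the most without HCT116. The cause was not tested. Of 140 alternative estimates of the 10 genes across lines, 3 moved by more than the SD among lines, all under the GC and length adjustment (LMNB1, LMNB2 and EMD), and 3 changed sign: EMD with that adjustment (−0.36) and without HCT116 (−0.08), and HMGA1 without SW480 (0.22). Of 150 alternative ratios within a line, 27 left the counting interval, 19 under the GC and length adjustment and 8 with library size alone in HCT116, and 11 changed sign. Under the GC and length adjustment 1 gene, HMGA1, was at least 2-fold lower in HCT116, and 3 in place of 5 genes were at least 2-fold higher in HT29, with LMNB2 at 1.998-fold and HMGB2 at 1.97-fold. In HCT116 the genes at least 2-fold higher were then LMNA, HMGB1, LBR and TMPO. No share of all genes under this adjustment stands beside these counts. Without HCT116, a setting chosen after seeing the data, 5 in place of 2 genes were at least 2-fold higher in every line left, and with the GC and length adjustment, also tried after seeing the data, 1 was (HMGB1). Levels per length also used total exon length, which lowered LMNA most, to 36.3 in place of 79.4 in the HCT116 control, and made HMGA1 the highest gene in place of LMNA in the HT29 control and in HCT116 with BZW2 shRNA. EMD, with 89 to 329 reads, is the gene most limited by depth.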

Other observations

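Of 48 pseudogenes named after HMGB1, 2 are in the table, and HMGB1P5 had values in all 3 lines. HCT116 gave 9 reads of it with BZW2 shRNA against 34 with the non-targeting shRNA, beside 496 against 1552 reads of HMGB1. HT29 gave 159 against 68, beside 10764 against 5167, and SW480 gave 110 against 32, beside 5165 against 1654. LMNB2 exceeded LMNB1 per transcript length 3.08-fold with BZW2 shRNA and 2.32-fold with the non-targeting shRNA in HCT116, and 1.98-fold against 2.77-fold in SW480. In HT29 the ratio was 0.804 against 1.12.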
